A study of Mus musculus with 6 samples.

Results

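Dual-specificity phosphatases (DUSPs) remove phosphate from tyrosine and from serine or threonine, and many of them switch off MAP kinases. The 8 genes described are Dusp1, Dusp2, Dusp4, Dusp5, Dusp6, Dusp10, Dusp11 and Dusp22, taken by gene name from the 39171 genes of each library file. Each name stood on 1 row, so none had to be chosen among several. They were measured by RNA sequencing of CD4+ T cells taken from the spleen with a magnetic isolation kit, in premenopausal C57BL/6 mice 10 weeks old at the start. The AngII group (3 mice) received angiotensin II, the peptide hormone that raises blood pressure, at 800 ng/kg/min from an osmotic minipump for 14 days. The Control group (3 mice) is labelled untreated, and the labels name no sham pump. The comparison addresses which transcripts of helper T cells respond to a hypertensive stimulus while ovarian function is intact.

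MAP kinases carry signals from the T cell receptor, from cytokines and from stress. The 3 main arms end in ERK (such as Mapk3), JNK (Mapk8, Mapk9) and p38 (Mapk14). The MAP kinase phosphatases dock on these kinases and dephosphorylate their activation loop. Several are themselves transcribed within minutes of ERK activation and so act as feedback brakes. Dusp1, Dusp2, Dusp4 and Dusp5 are inducible nuclear enzymes, Dusp6 is a cytoplasmic ERK phosphatase, and Dusp10 prefers JNK and p38. Dusp22 and Dusp11 are atypical members: Dusp22 is known to act on the kinase Lck in T cells, and Dusp11 removes phosphates from the 5′ end of RNA.

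All 8 genes were detected in all 6 libraries, at mean levels from 3.59 to 371 FPKM (fragments scaled by transcript length and by mapped fragments), and none differed between AngII and Control beyond the spread between mice. In the limma test on log2(FPKM + 1), 0 of 8 passed an adjusted p of 0.05, where 0.0338% of the 11842 genes tested passed. At an unadjusted p below 0.05 the limma count was also 0 of 8, against 1.76% of all genes. The AngII and Control values overlapped for each of the 8, against 5.84% of all genes whose groups did not overlap. Several of the genes varied between mice, and Dusp1, Dusp6 and Dusp10 were highest in the same 3 libraries. So were 12 of 22 immediate early genes and 0 of 8 other DUSP genes tested, against 8.96% of all genes tested.

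Upstream sequence is shown for the 3 members that were highest in the same 3 libraries (Dusp1, Dusp6 and Dusp10) and for Dusp5, which carries a paired element. The sequences are from RefSeq on GRCm38.p6, in the direction of transcription, starting 250 bases before the RefSeq start site and ending before any exon of the gene in GENCODE M21. The windows of Dusp1 and Dusp10 lie inside the annotated gene spans, since GENCODE M21 also holds a transcript of each that begins farther upstream. Positions are counted from the start site, with -1 the base just before it. Capitals mark matches on either strand to the core of the cyclic AMP response element (CRE core) TGACG, the AP-1 site TGANTCA, the E-box CACGTG, the EGR site GCGNGGGCG, the serum response element or the NF-kappaB site.
Dusp1, chr17:26508520-26508722, minus strand: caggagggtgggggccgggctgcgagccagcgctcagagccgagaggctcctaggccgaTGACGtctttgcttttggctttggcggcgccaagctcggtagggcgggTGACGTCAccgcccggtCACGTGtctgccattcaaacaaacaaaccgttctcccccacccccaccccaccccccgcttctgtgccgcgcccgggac
Dusp6, chr10:99262981-99263230, plus strand: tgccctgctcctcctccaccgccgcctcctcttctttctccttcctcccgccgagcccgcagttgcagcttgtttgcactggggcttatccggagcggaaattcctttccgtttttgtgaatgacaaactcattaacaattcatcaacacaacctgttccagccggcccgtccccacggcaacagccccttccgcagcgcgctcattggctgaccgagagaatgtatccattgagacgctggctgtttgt
Dusp10, chr1:184034131-184034380, plus strand: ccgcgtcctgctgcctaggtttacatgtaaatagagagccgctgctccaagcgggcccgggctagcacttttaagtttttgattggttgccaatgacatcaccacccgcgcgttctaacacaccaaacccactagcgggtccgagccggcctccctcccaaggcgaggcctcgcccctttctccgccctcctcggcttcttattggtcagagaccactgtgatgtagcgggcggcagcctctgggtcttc
Dusp5, chr19:53528895-53529108, plus strand: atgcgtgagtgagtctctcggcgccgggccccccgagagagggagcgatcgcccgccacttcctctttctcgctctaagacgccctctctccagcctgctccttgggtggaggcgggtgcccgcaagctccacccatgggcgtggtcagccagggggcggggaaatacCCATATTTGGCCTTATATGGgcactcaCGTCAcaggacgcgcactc

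The Dusp1 window held 3 matches to the CRE core. One lay at -191 to -187, and a pair on opposite strands at -143 to -139 and -140 to -136 overlapped to form the palindrome TGACGTCA. An E-box stood at -126 to -121. The CRE core was present in 20.8% of the 32851 promoter windows of 300 bases in the RefSeq table and the E-box in 7.15%. The Dusp5 window held 2 serum response elements side by side, CCATATTTGG at -82 to -73 and CCTTATATGG at -72 to -63, an element found in 1.63% of windows. It also held 1 CRE core, at -55 to -51. The windows of Dusp6 and Dusp10 held none of the 6 motifs, which says only that these letters are not in the windows. Among the members not printed, Dusp2 had an E-box (-109 to -104), an EGR site (-98 to -90; 5.55% of windows) and a CRE core after the start. Dusp11 had 1 CRE core, and Dusp22 had overlapping NF-kappaB matches (8.46% of windows) and an EGR site. No member matched the AP-1 site (7.81% of windows). A match is a run of letters and not a shown binding site. Promoters were found for 7 of the 8 members, all but Dusp4.

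Dusp1 (ENSMUSG00000024190, chromosome 17, 26505590 to 26562128 on GRCm38, minus strand) encodes MKP-1, which acts on p38, JNK and ERK and is induced by stress, mitogens and glucocorticoids. It had the highest level of the 8, with 447, 548 and 292 FPKM in Control (always given in the order of replicates 1, 2 and 3) and 255, 404 and 279 FPKM in AngII. Control replicates 1 and 2 and AngII replicate 2 were high, while Control replicate 3 lay with AngII replicates 1 and 3, so the groups overlapped. Control averaged 429 ± 129 FPKM and AngII 312.6 ± 80.2 (SD, n = 3). The log2 fold change was -0.44 (SE 0.278, 95% interval -1.12 to 0.24, limma adjusted p = 0.9999). Without Control replicate 2 it was -0.237, without Control replicate 3 it was -0.691, and with library weights -0.83 (limma adjusted p = 0.275), so its size rests on single libraries. In the authors' deposited table Dusp1 had the smallest p of any DUSP gene, 0.0009, with a q of 0.241, and that table gives no direction that the labels can settle.

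Dusp2 (ENSMUSG00000027368, chromosome 2, 127336159 to 127338376, plus strand) encodes PAC-1, a nuclear phosphatase typical of activated lymphocytes. Control replicates gave 133.5, 189 and 188 FPKM and AngII replicates 209, 106 and 211. AngII thus held both the highest values and the lowest one, which was that of AngII replicate 2. The means were 170.0 ± 31.7 and 175.4 ± 59.8 FPKM (SD, n = 3), so the AngII mean was the higher on the FPKM scale, while the log2 fold change was -0.004 (SE 0.3, 95% interval -0.74 to 0.73, limma adjusted p = 0.9999). Without AngII replicate 2 the log2 fold change was 0.321, still short of the threshold (limma adjusted p = 0.655).

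Dusp5 (ENSMUSG00000034765, chromosome 19, 53529109 to 53542431, plus strand), a nuclear phosphatase selective for ERK, was at 125.5, 149.8 and 142 FPKM in Control and at 106, 167 and 131 in AngII. Its AngII values spanned the whole range of the 6 libraries, with replicate 2 on top and replicate 1 at the bottom. The means were 139 ± 12.4 and 134.7 ± 30.8 FPKM (SD, n = 3), with a log2 fold change of -0.07 (95% interval -0.49 to 0.35). Dusp4 (ENSMUSG00000031530, chromosome 8, 34807297 to 34819894, plus strand) encodes MKP-2, a nuclear enzyme for ERK and JNK. It was at 11.3, 10.6 and 11.5 FPKM in Control and at 7.74, 16.2 and 9.46 in AngII. The 3 Control values lay close together, and the AngII values lay on both sides of them. Its log2 fold change was -0.06 (95% interval -0.66 to 0.54). Without AngII replicate 1 the sign turned for both genes, to 0.093 for Dusp5 and 0.144 for Dusp4, and with library weights each was -0.248.

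Dusp6 (ENSMUSG00000019960, chromosome 10, 99263231 to 99267489, plus strand) encodes MKP-3, which holds ERK in the cytoplasm and dephosphorylates it. It was at 47.3, 42.5 and 32.8 FPKM in Control and at 29.6, 38.9 and 30.8 in AngII. As with Dusp1, Control replicates 1 and 2 and AngII replicate 2 were the high libraries. The means were 40.9 ± 7.41 and 33.1 ± 5.05 FPKM (SD, n = 3), with a log2 fold change of -0.29 (SE 0.165, 95% interval -0.69 to 0.11, limma adjusted p = 0.9999). It was -0.178 without Control replicate 1, and -0.436 both without Control replicate 3 and with library weights. Dusp6 had a p of 0.0196 and a q of 0.9999 in the authors' deposited table, where it and Dusp1 were the 2 of 8 members with a p below 0.05, against 2.36% of the 14720 rows tested there. By q below 0.05 the authors' deposited table had 0 of 8, against 0.251% of those rows. The closest relative of Dusp6, Dusp7, also a cytoplasmic ERK phosphatase, did not share its high libraries. Dusp7 was at 32.1, 29.95 and 31.0 FPKM in Control and at 39.1, 23.5 and 38.3 in AngII (log2 fold change 0.08, 95% interval -0.40 to 0.56), lowest in AngII replicate 2 as Dusp2 was.

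Dusp10 (ENSMUSG00000039384, chromosome 1, 184013302 to 184075636, plus strand) encodes MKP-5, a phosphatase of JNK and p38 studied in T cell cytokine responses. It varied most between mice, at 85.1, 95.2 and 43.0 FPKM in Control and at 41.0, 155 and 51.2 in AngII. AngII replicate 2 stood 3.78-fold above AngII replicate 1, and Control replicate 2 stood 2.215-fold above Control replicate 3. The means were 74.4 ± 27.7 and 82.5 ± 63.2 FPKM (SD, n = 3), the AngII mean again being the higher in FPKM, and the log2 fold change was -0.03 with a 95% interval from -1.4 to 1.34. An interval this wide leaves the direction and the size of any difference in Dusp10 undetermined. Without AngII replicate 1 the log2 fold change was 0.338, without AngII replicate 2 it was -0.609, and with library weights it was -0.757 (limma adjusted p = 0.2985). Of its relatives in the JNK and p38 group, Dusp8 stayed under the filter and Dusp16 was low, with a Control mean of 1.81 ± 0.464 FPKM against 1.62 ± 0.213 for AngII (SD, n = 3).

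Dusp11 (ENSMUSG00000030002, chromosome 6, 85942268 to 85961667, minus strand), the RNA phosphatase, varied least among the 8. It was at 67.5, 63.4 and 56.6 FPKM in Control and at 62.4, 54.4 and 67.9 in AngII. The groups covered nearly the same range, with a log2 fold change of -0.02 (95% interval -0.28 to 0.24). Dusp22 (ENSMUSG00000069255, chromosome 13, 30659999 to 30711231, plus strand), also called JKAP, had the lowest level, at 2.57, 3.60 and 3.96 FPKM in Control and 3.16, 5.21 and 3.07 in AngII. AngII replicate 2 was highest and Control replicate 1 lowest. The log2 fold change was 0.12 (95% interval -0.40 to 0.64, limma adjusted p = 0.9999), and it was -0.074 without AngII replicate 2 and -0.016 without Control replicate 1.

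**Figure D1:**
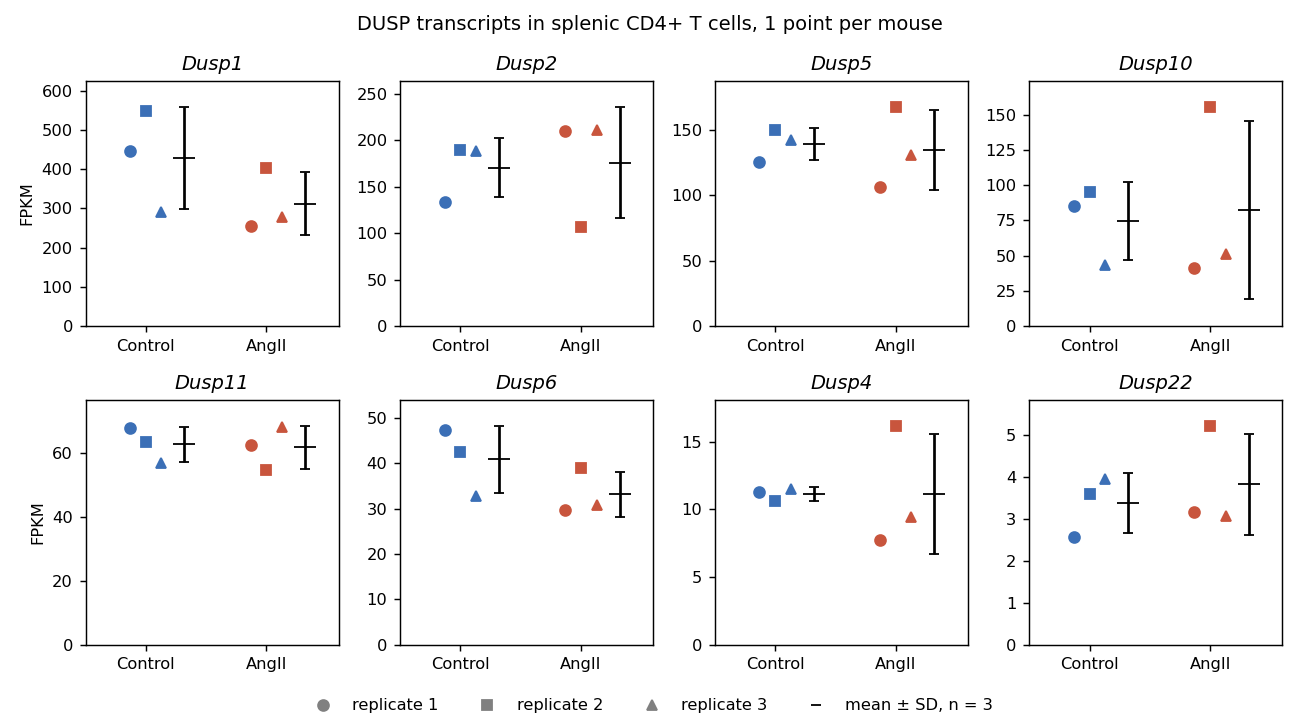
FPKM of the 8 DUSP genes (vertical axis, linear from 0, a separate scale per gene) in Control (blue) and AngII (red), 1 point per mouse with the replicate number as the shape, and the mean ± SD of 3 mice in black. The groups overlap in every panel, and AngII replicate 2 (red square) is the highest AngII library for Dusp1, Dusp4, Dusp5, Dusp6, Dusp10 and Dusp22 and the lowest for Dusp2 and Dusp11.

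**Figure D2:**
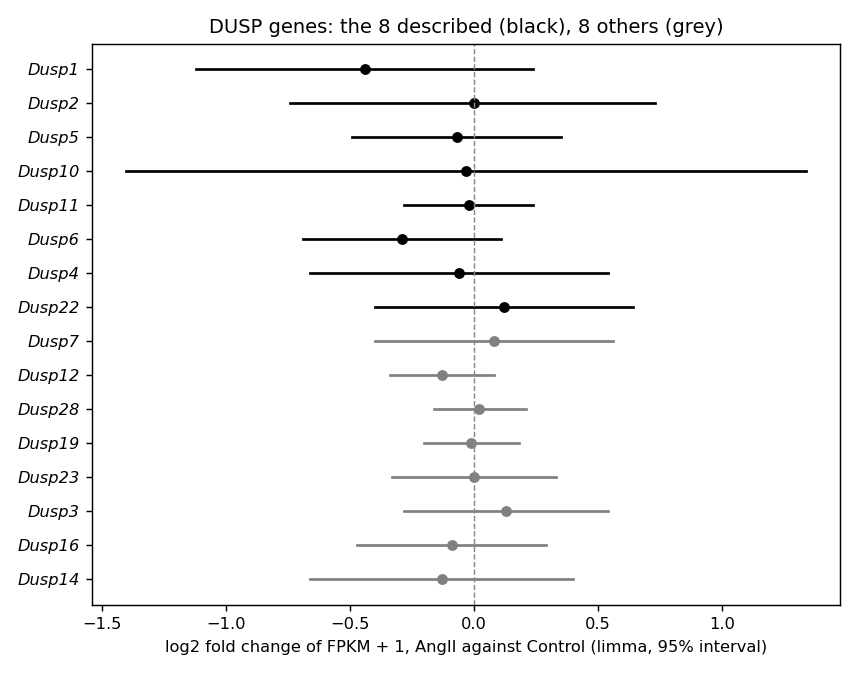
Log2 fold change of FPKM + 1 in AngII against Control (horizontal axis) with its 95% interval from limma, for the 8 genes described (black) and the other 8 DUSP genes tested (grey). Every interval crosses 0, and that of Dusp10 is the widest, from -1.4 to 1.34.

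By level per transcript length (mean FPKM of the 6 libraries), the order was Dusp1 (371), Dusp2 (173), Dusp5 (137), Dusp10 (78.5), Dusp11 (62.0), Dusp6 (37.0), Dusp4 (11.1) and Dusp22 (3.59). Dusp1 alone made up 42.5% of the summed FPKM of the 8. Its range did not overlap that of Dusp2. Dusp2 and Dusp5 overlapped in range, with Dusp2 higher in 5 of 6 libraries, and Dusp10 and Dusp11 changed places, with Dusp10 higher in 3 of 6. Dusp5 and Dusp10 overlapped in range because of AngII replicate 2, although Dusp5 was higher in 6 of 6 libraries. From Dusp11 downward, neighbours in the order did not overlap.

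The members differed in how far they spread over the 6 libraries. On the log2(FPKM + 1) scale the SD over all 6 libraries was 0.75 for Dusp10, 0.439 for Dusp1, 0.399 for Dusp2 and 0.323 for Dusp4. Of 6703 genes averaging 10 FPKM or more, 3.51% had an SD as large as that of Dusp10 and 5.62% as large as that of Dusp1. Dusp11 had an SD of 0.129, which 40.2% of those genes reached. AngII replicate 1 was the lowest library for 5 of the 8 genes (Dusp1, Dusp4, Dusp5, Dusp6 and Dusp10), and AngII replicate 2 was the highest for 4 (Dusp4, Dusp5, Dusp10 and Dusp22).

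Dusp1, Dusp6 and Dusp10 shared their 3 highest libraries, Control replicates 1 and 2 and AngII replicate 2. The order among these 3 libraries differed between the 3 genes. Of the 7 members other than Dusp1, 2 had the same 3 highest libraries in any order. Of all 11842 genes tested 8.96% had them (11.5% of those averaging 10 FPKM or more). Among 22 immediate early genes, which are transcribed within minutes of MAP kinase activation without new protein, 12 had the same 3 highest libraries. These included Fos, Fosb, Jun, Junb, Jund, Zfp36, Klf4 and Klf6. Another 2 of the 22 (Egr3 and Myc) had those libraries as their 3 lowest, as did 846 of all 11842 genes tested. Fos, an AP-1 subunit, was at 493, 575 and 151 FPKM in Control and at 143, 358 and 164 in AngII. Jun, its partner, was at 393, 453 and 186 FPKM in Control and 153, 394 and 179 in AngII. The highest library stood over the lowest by 2.15-fold for Dusp1, 1.6-fold for Dusp6 and 3.78-fold for Dusp10. Of the monocyte and macrophage, B cell and T cell markers, 0 of 8, 0 of 7 and 0 of 8 had the same 3 highest libraries. The other marker lists also held 0 such genes. At the share of 8.96% over all genes, lists this short can hold 0, so these counts do not set the markers apart. The 5 platelet markers had their 3 lowest values in those libraries. How far the handling of the cells, or other cells in the preparation, takes part in this pattern was not tested.

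**Figure D3:**
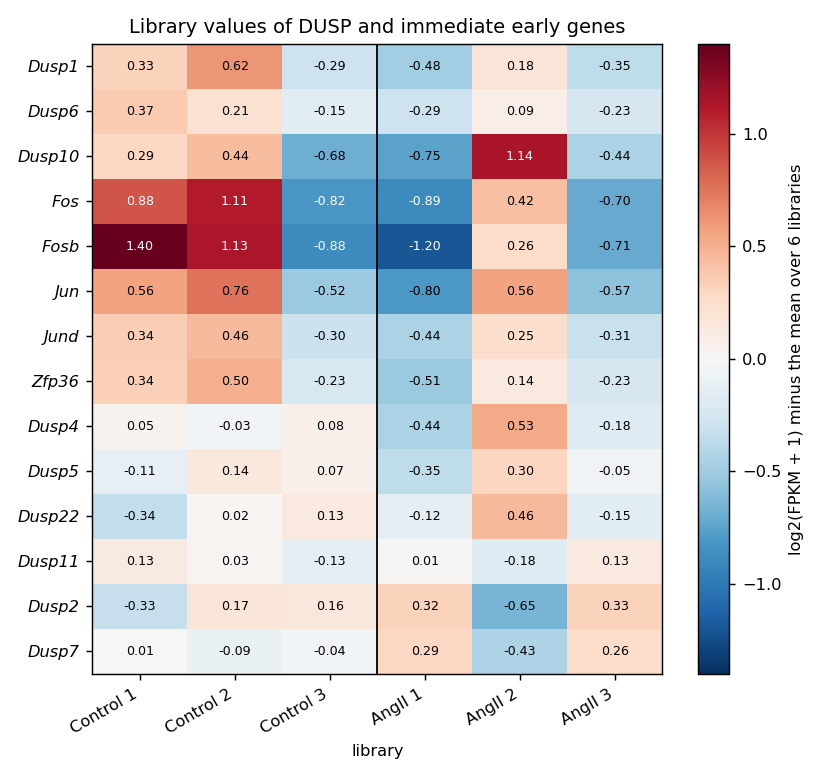
Log2(FPKM + 1) of 9 DUSP and 5 immediate early genes in each library, minus the mean of that gene over the 6 libraries (colour and printed value, red above and blue below the mean). Dusp1, Dusp6 and Dusp10 are above their mean in Control 1, Control 2 and AngII 2, as are Fos, Fosb, Jun, Jund and Zfp36, while Dusp2 and Dusp7 are lowest in AngII 2.

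The genes whose library values lay closest to each member were found by the root mean square difference of centred log2(FPKM + 1) over the 6 libraries, among 6152 genes (6153 for Dusp22) averaging 10 FPKM or more and left after predicted genes, clone names, antigen receptor segments, small RNAs and named pseudogenes were taken out, for the 6 members with an SD of at least 0.25. For Dusp1 they were Rhob (0.061), a small GTPase, Jund (0.076), an AP-1 subunit, and Zfp36 (0.076), an RNA-binding protein that destabilises messages with AU-rich elements. Dusp6 was the member most like Dusp1 (0.202) and stood 8th of all genes compared, but counted from Dusp6, Dusp1 stood 897th. Dusp10 stood 4620th from Dusp1 (0.446), and Dusp1 stood 21st from Dusp10. The closest genes to Dusp6 itself were the AP-1 gene Junb (0.097), Rgcc (0.097) and the ribosomal protein paralog Rpl22l1 (0.099). For Dusp10 they were Junos (0.24), Maff (0.274), a small MAF factor, and Jun (0.306). Junos is annotated antisense to Jun and overlaps it, and whether the authors' quantification used strand is not given in the sources used here, so its reads and those of Jun may not be told apart. With 6 libraries and 6152 genes such closeness is a description only.

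Dusp2 had another set of neighbours, among them Rras2 (0.157), a RAS-like GTPase, and Socs1 (0.171), an inhibitor of cytokine signalling. Socs1 was at 35.5, 33.4 and 39.9 FPKM in Control and at 44.6, 23.2 and 44.1 in AngII, low in AngII replicate 2 as Dusp2 was. Dusp2 was far from Dusp1 (0.662) and Dusp4 (0.637), so the inducible nuclear members did not vary as 1 group. Dusp4 lay closest to Rbm3 (0.061), a cold-inducible RNA-binding protein, Ccdc107 (0.076) and Tipin (0.099), which acts at replication forks. Rbm3 was at 365, 368 and 354 FPKM in Control and at 275, 538.5 and 310 in AngII, highest in AngII replicate 2 and lowest in AngII replicate 1. Dusp5 was the member most like Dusp4 (0.151).

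Dusp22 varied over the libraries in the same order as the summed macrophage markers. Its nearest genes were Snx10 (0.028), an endosomal sorting nexin, Ctsb (0.030), the lysosomal protease cathepsin B, and Ube2c (0.043), a mitotic ubiquitin-conjugating enzyme. Ctsb was at 175, 241 and 252 FPKM in Control and at 210.2, 316 and 204 in AngII. The summed FPKM of 8 monocyte and macrophage markers was 757, 982 and 1262 in Control and 898.5, 1672 and 888.2 in AngII, in the same order over the 6 libraries as Dusp22, and none of the 8 markers was at 0 in any library. Of the single markers, Csf1r and Cd68 (2 of 8) had exactly the order of Dusp22, as did 1.16% of all genes tested, and 6 of 8 were highest in AngII replicate 2. In such bulk samples fewer cells of a type and less RNA per cell cannot be told apart. The part of macrophage RNA in the Dusp22 values was not tested.

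**Figure D4:**
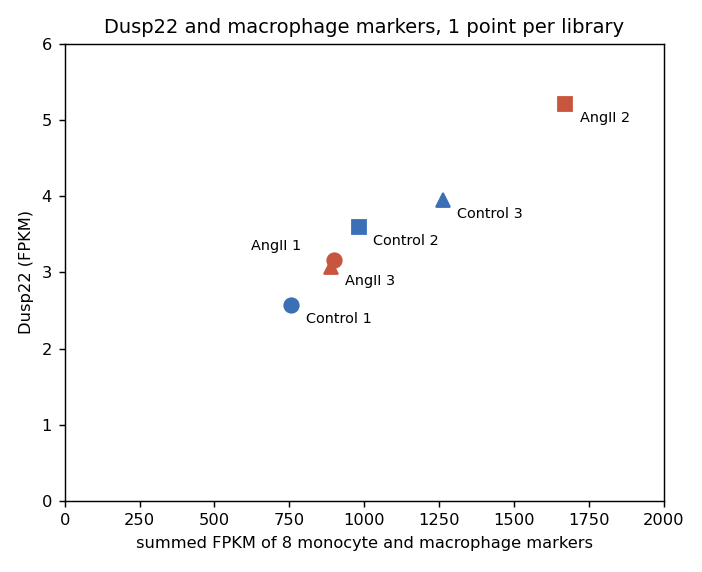
Dusp22 (FPKM, vertical axis) against the summed FPKM of 8 monocyte and macrophage markers (horizontal axis), 1 point per library, Control in blue and AngII in red. Both axes start at 0, and the libraries stand in the same order on both, from Control 1 (757 and 2.57) to AngII 2 (1672 and 5.21).

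Control mice averaged 228.6 ± 25.5 FPKM of Cd4 itself and AngII mice 228.1 ± 12.5 (SD, n = 3), and markers of other cells were present beside it, the macrophage gene C1qa among them at a mean of 225 FPKM. The 8 T cell markers summed to 3915 to 4686 FPKM in Control and 3788 to 4358 in AngII. Markers of B cells (led by Cd79b) summed to 35.2 to 113 FPKM in Control and 33.7 to 110.1 in AngII, of NK cells (Gzma) to 91.2 to 137 and 78.5 to 116, of CD8 T cells (Ccl5) to 343 to 576 and 333.5 to 417, of neutrophils (S100a8) to 8.07 to 42.1 and 24.0 to 75.5, of platelets (Ppbp) to 77.7 to 245 and 154 to 205, of dendritic cells (Itgax) to 8.09 to 17.8 and 8.43 to 10.7, and of erythroid cells (Hbb-bs) to 290 to 482 and 156 to 633.5. In limma the log2 fold changes of the 6 neutrophil markers tested had a median of 1.358 and those of the 5 platelet markers 0.564, while the 5 CD8 T cell markers (-0.273) and the 7 NK cell markers (-0.282) had medians below 0, with 0 genes of any marker list past the threshold or at an unadjusted p below 0.05. Within the CD8 list Ccl5 averaged 319 FPKM and Nkg7 78.1. Cd8b1 averaged 10.4 FPKM (log2 fold change -0.01) and Cd8a 0.864, under the filter. The CD8 sum thus rested mainly on Ccl5 and Nkg7 rather than on the Cd8 genes. The part of these other cells in the values of the DUSP genes was not tested. Of all these markers 1, the neutrophil gene Ly6g, was listed at 0 in any library, and it was so in 5 of 6. The libraries summed to between 613674 and 717286 FPKM. The read number of each library is not given in the sources used here, but low genes put the value of 1 fragment in the other libraries at 0.895 to 0.973 times that in Control replicate 1, so depths were similar.

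Outside the 8, 16 further DUSP genes were measured and 8 of them passed the filter of a mean of 1 FPKM. In limma 0 of the 8 passed in either direction, also 0 at an unadjusted p below 0.05. In the authors' deposited table these 8 had no p below 0.05, and the 8 below the filter are marked as not tested. Their median log2 fold change was -0.008, against -0.046 for the 8 members and -0.004 for all genes tested. After Dusp7 came Dusp12 (8.09 ± 0.681 FPKM in Control and 7.30 ± 0.460 in AngII), Dusp28 (6.93 ± 0.143 and 7.07 ± 0.578), Dusp19 (6.07 ± 0.354 and 6.01 ± 0.381), Dusp23 (5.08 ± 0.947 and 5.02 ± 0.450), Dusp3 (3.72 ± 0.927 and 4.11 ± 0.494) and Dusp14 (1.32 ± 0.3195 and 1.14 ± 0.499; SD, n = 3). Dusp3 (VHR) and Dusp14 (MKP-6) are small atypical phosphatases known from T cell receptor signalling. Over the 8 genes the log2 fold changes lay between -0.13 and 0.13. Dusp8, Dusp9, Dusp13, Dusp15, Dusp18, Dusp21, Dusp26 and Dusp27 stayed under the filter, with Dusp15 and Dusp21 listed at 0 in all 6 libraries.

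Of the kinases that these phosphatases act on, the 4 described did not differ beyond the spread between mice. Mapk3 (ERK1) averaged 33.0 ± 2.91 FPKM in Control against 32.3 ± 2.91 in AngII, Mapk14 (p38 alpha) 72.7 ± 1.83 and 71.1 ± 3.46, Mapk8 (JNK1) 14.3 ± 0.602 and 14.3 ± 1.44, and Mapk9 (JNK2) 17.9 ± 1.39 and 18.9 ± 0.245 (SD, n = 3). Their 95% intervals of the log2 fold change lay within -0.26 and 0.25. These levels are of transcripts and say nothing of kinase phosphorylation.

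Over the family and pathway lists, 0 of 103 genes tested passed limma, and 1 had an unadjusted p below 0.05, against 1.76% of all genes. The groups did not overlap for 3 of the 103 genes, lower in AngII, where 3.48% of all genes did this. They did not overlap for 1 gene higher in AngII, where 2.36% did. None of these counts was above the share over all genes. The 3 lower genes were Elk1 and Elk3, ternary complex factors that ERK phosphorylates, and the adaptor Dok2. Elk1 was at 6.03, 5.99 and 6.38 FPKM in Control and at 5.33, 5.28 and 5.56 in AngII (log2 fold change -0.16). Elk3 was at 28.2, 28.5 and 29.1 FPKM in Control and at 26.1, 26.5 and 26.5 in AngII (-0.11). Dok2, which recruits RAS GTPase-activating protein, had a log2 fold change of -0.13. The 1 higher was Tab1, an activator of the kinase TAK1 that also binds p38, at 5.27, 4.60 and 5.16 FPKM in Control and at 5.425, 6.42 and 6.21 in AngII (log2 fold change 0.22, unadjusted p = 0.0489 and adjusted p = 0.9999 in limma).

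Within the ERK cascade list (22 tested) the median log2 fold change was -0.011, and Elk1, Elk3 and Hras (-0.10) were among the 4 genes of smallest p. The 13 tested negative regulators of ERK had a median of -0.046. Spry1, an inhibitor of RAS signalling that is itself an ERK target, was at 12.9, 10.85 and 9.65 FPKM in Control and at 7.33, 10.6 and 7.55 in AngII, with a log2 fold change of -0.36 (95% interval -0.76 to 0.04). Spry1 had the same 3 highest libraries as Dusp1 and Dusp6, as 1 of the 13 (7.69%), against 8.96% of all genes tested. Spred1 (0.19) and Spred2 (-0.13), RAS inhibitors of the same family, had log2 fold changes of opposite sign.

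The JNK list (14 tested, median 0.021) and the p38 list (14 tested, median -0.033) lay close to the median of all genes. In the JNK list Jun had a log2 fold change of -0.54, and Map2k7 (0.07), Map4k4 (0.11) and Mapk9 (0.08) had small ones. In the p38 list Gadd45b, an inducible activator of MAP kinase kinase kinases, had -0.29, Mapk11 -0.06 and Rps6ka4 -0.03. Among 11 genes of other MAP kinase phosphatases, their subunits and relatives, the median was -0.005. Styx was at 0.14, Ppm1d at 0.12, Ppp2r1a at -0.06 and Ptpn7, a haematopoietic tyrosine phosphatase of ERK and p38, at -0.05. None of these genes passed the limma threshold.

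Among the family and pathway lists, the median farthest from 0 was that of the immediate early genes, at -0.217. AngII means on the log2 scale were lower for 18 of 22 genes, and for 6152 of all 11842 genes tested. The 22 are not separate observations, since 12 of them shared their 3 highest libraries. In limma 0 of 22 were past the threshold or at an unadjusted p below 0.05. Ier2 (-0.22), Btg2 (-0.11), Egr1 (-0.35) and Zfp36 (-0.41) had the smallest p. Egr1, an ERK-driven zinc finger factor, was at 69.0, 66.4 and 43.4 FPKM in Control and at 41.75, 45.9 and 49.8 in AngII, so here AngII replicate 2 was not among the 3 highest. For Fos, whose library values are given above, the log2 fold change was -0.78 (SE 0.6, 95% interval -2.25 to 0.68, limma adjusted p = 0.9999). As for Dusp1, 2 of the 3 high libraries were Control and 1 was AngII.

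**Figure D5:**
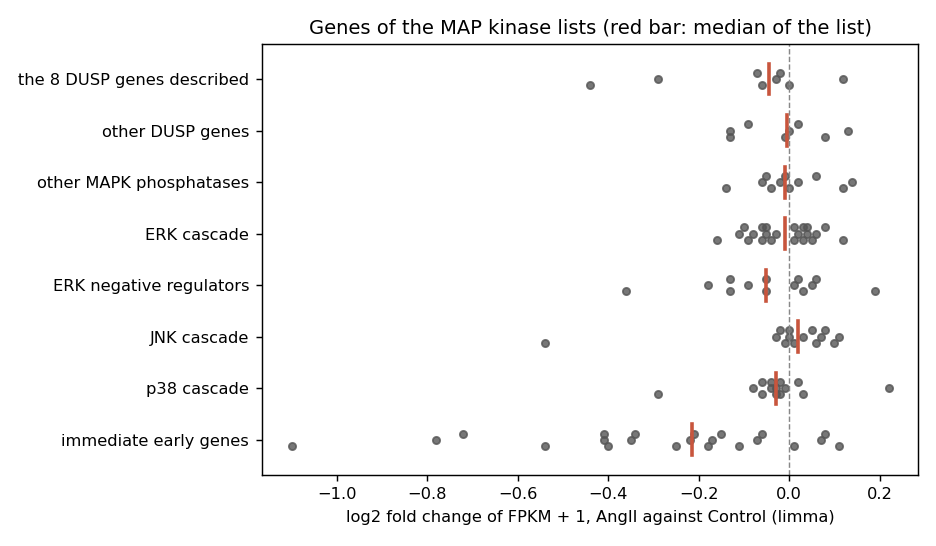
Log2 fold change of FPKM + 1 in AngII against Control from limma (horizontal axis) for each gene tested in 8 lists, 1 point per gene, with the median of the list as a red bar. The medians lie between -0.046 and 0.021 except for the immediate early genes at -0.217, and no point passed the threshold.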

How the data were processed

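RNA of splenic CD4+ T cells from 6 mice was sequenced after Illumina TruSeq preparation, per the labels' protocols. Per the submitters' processing notes, the tools were Trimmomatic 0.32, TopHat2 2.1.1 and Cuffdiff (version not given in the sources used here), on GRCm38.p3. The authors deposited 1 FPKM value per gene and library, and 1 table of their own comparison with p-values and q-values. That deposited table numbers its conditions without naming them, so no direction was taken from it. FPKM are not counts, so no count test was run.

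FPKM were tested as log2(FPKM + 1) with limma 3.58.1 in R 4.3.3 (moderated variance with a trend on mean level), for the 11842 of 39171 genes averaging 1 FPKM or more, with Benjamini-Hochberg adjustment over all of them and a threshold of 0.05. This scale understates changes of low genes. The procedure was tested on simulated data. Groups came from the labels, and the design text gives 3 mice per group. Precision is limited by the number of mice and by absolute read depths that are unknown.

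The members and gene lists were chosen with earlier results of these data known. Genes named were the members, the other DUSP genes above the filter, the 4 genes of smallest p in each pathway list, fixed kinases, Fos, Jun and Egr1, the 3 genes closest to each variable member, and the leading marker of each cell type. Some genes that this rule names are not reported here. Fosb, Jund, Klf4, Klf6, Egr3, Myc and the genes whose order of libraries is given were named after their values were seen. Gene positions are from GENCODE M21 on GRCm38, and promoter windows from RefSeq on GRCm38.p6. Protein sequences were not used here. The alternatives tried were other pseudocounts, filters, scalings, variance settings, library weights, a replicate block, a looser threshold and leaving out each library.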

Additional observations from a re-analysis of the deposited data

How the results depend on the processing

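None of the 8 DUSP genes, and none of the 103 family and pathway genes, passed the threshold under any of the 18 alternatives, and the lowest adjusted p of a member was 0.275 (limma with library weights). Over the whole transcriptome 4 genes passed, against 7 with no filter and 4 to 9 when 1 library was left out (8 without Control replicate 1, 7 without Control replicate 3 and 9 without AngII replicate 3). Only 12 of the alternatives can move a fold change, and Dusp1 and Dusp6 kept their direction in 12 of 12. Of 96 such member values, 70 kept their direction and 26 reversed without passing. With 1 library left out, the log2 fold change ranged from -0.691 to -0.237 for Dusp1, -0.169 to 0.321 for Dusp2, -0.343 to 0.144 for Dusp4, -0.235 to 0.093 for Dusp5, -0.436 to -0.178 for Dusp6, -0.609 to 0.338 for Dusp10, -0.096 to 0.061 for Dusp11 and -0.074 to 0.231 for Dusp22. Values reversed under median-of-ratios scaling for Dusp2 (0.003), and under quantile normalization for Dusp2 (0.032), Dusp10 (0.001) and Dusp11 (0.009). They reversed under equal-sum scaling for Dusp2 (0.064), Dusp4 (0.001), Dusp5 (0.001), Dusp10 (0.038) and Dusp11 (0.044), and with library weights for Dusp2 (0.189), Dusp11 (0.035) and Dusp22 (-0.079). The median log2 fold change of all genes tested was -0.004 in the main fit and 0.058 under equal-sum scaling. It was 0.002 under median-of-ratios scaling. The cause of the reversals was not tested. Dusp22 gave no value at a mean of at least 5 FPKM. Same-numbered libraries did not deviate together over the genes tested (r of -0.08, -0.023 and -0.035). Such correlations cannot show whether the numbers pair the mice. With the replicate block 3 genes passed in all, 0 of them members, and the Dusp1 log2 fold change was -0.437 (SE 0.163, limma adjusted p = 0.9998). With 3 mice per group and unknown absolute read depth, the intervals hold differences that these data do not exclude.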
